A study of Mus musculus with 4 samples.

Results

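Complement is a plasma protease cascade, and the liver is the main source of most of its proteins. The set examined here holds 31 listed complement and lectin pathway genes, chosen by symbol, of which 25 had a row of their own among the 22849 gene symbols of the liver FPKM table. FPKM are fragment numbers scaled to transcript length and sequencing depth, so levels of different genes are on a per-length scale. C1ra, C1s, C2, C4b, Cfb and Cd59a appeared only in 5 rows that name several genes together. Those rows are given separately, since no split of their FPKM by gene is possible. Cfhr2, C8g and Masp1 had 2 rows each, which were summed.

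RNA came from livers of male C57BL/6 mice, an inbred strain, kept on a diet with 60% fat for 12 weeks. The vehicle group (2 libraries) received that diet alone, and the UAB126 group (2 libraries) received it with 1.2 g of UAB126 per kg of diet. That compound is known here by its code name only, and there was no group on a normal diet, so both groups carry the effects of fat feeding. The labels give neither the age of the mice nor whether each library was a separate animal, so p-values measure the spread between these 4 libraries, which may be partly technical.

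The cascade can be started by 3 routes. In the classical route, C1q bound to antibody activates the proteases C1r and C1s, which cleave C4 and C2. In the lectin route, mannose-binding lectins, collectins and ficolins bind sugars and act through the proteases Masp1 and Masp2. In the alternative route, which starts with spontaneous hydrolysis of C3, cleavage is amplified by factors B and D and the convertase is stabilised by properdin. All routes cleave C3 and then C5, after which C6, C7, C8 and C9 form the membrane attack complex. Regulators such as C1 inhibitor, C4-binding protein, factor I, CD55 and CD59 hold these steps in check. Hepatocytes make most of these proteins, while properdin, C1q and ficolin A come largely from myeloid cells.

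Absolute depth is unknown. The relative depth, read from the most frequent ratio between low values, was 1 for UAB126 replicate 1 by definition, 0.703 for UAB126 replicate 2, 0.691 for vehicle replicate 1 and 0.404 for vehicle replicate 2. The hepatocyte markers Apoa1 and Ttr were high in every library (9453 to 35885 and 19625 to 44092 FPKM), while Alb was listed at 0 in all but vehicle replicate 2. Kupffer cell and macrophage markers, 9 in all, summed to 56.97 FPKM in vehicle replicate 1 and to between 148.3 and 165.1 FPKM in the other libraries. In both UAB126 libraries 4 of these 9 were higher (44.4%, against 22.7% of all symbols tested below) and 0 lower (against 26.9%). Their median log2 difference, UAB126 minus vehicle, was 0.62. All the tissue was whole liver, so fewer cells of a type and less RNA per cell cannot be told apart.

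None of the complement genes passed the threshold, although 7 of them differed at an unadjusted p under 0.05. Genes averaging 1 FPKM or more were compared on the log2(FPKM + 1) scale with limma, two-sided, at a Benjamini-Hochberg adjusted p under 0.05 over all 10786 tested symbols. There 15 symbols passed (0.139% of those tested), 5 as higher with UAB126 (0.0464%) and 10 as lower (0.0927%). Of the 25 members 23 were tested and 0 passed, and the receptors C3ar1 and C5ar1 fell under the filter. At an unadjusted p under 0.05, 6 members were lower with UAB126 and 1 was higher, against 8.38% and 5.03% of all tested symbols.

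Both UAB126 libraries lay under both vehicle libraries in 11 of the 23 members (47.8%), and above them in 3 (13%). Over all tested symbols those shares were 26.9% and 22.7%. The median log2 difference of the members (UAB126 minus vehicle) was -0.24, against -0.03 for all tested symbols. This median was -0.49 without vehicle replicate 1 and -0.39 without UAB126 replicate 1, and its sign turned to 0.11 when the libraries were quantile normalised. Centring each library on hepatocyte markers added the same amount to every log2 difference, so that the median of all tested symbols was 0.72 and that of the members 0.50. Under that centring 3 members passed, C3 and Cd55 as higher (adjusted p = 0.0467 and 0.0275, limma) and Cfd as lower (0.0162). That count stands against 10.3% of all tested symbols, 9.54% as higher and 0.77% as lower.

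**Figure D1:**
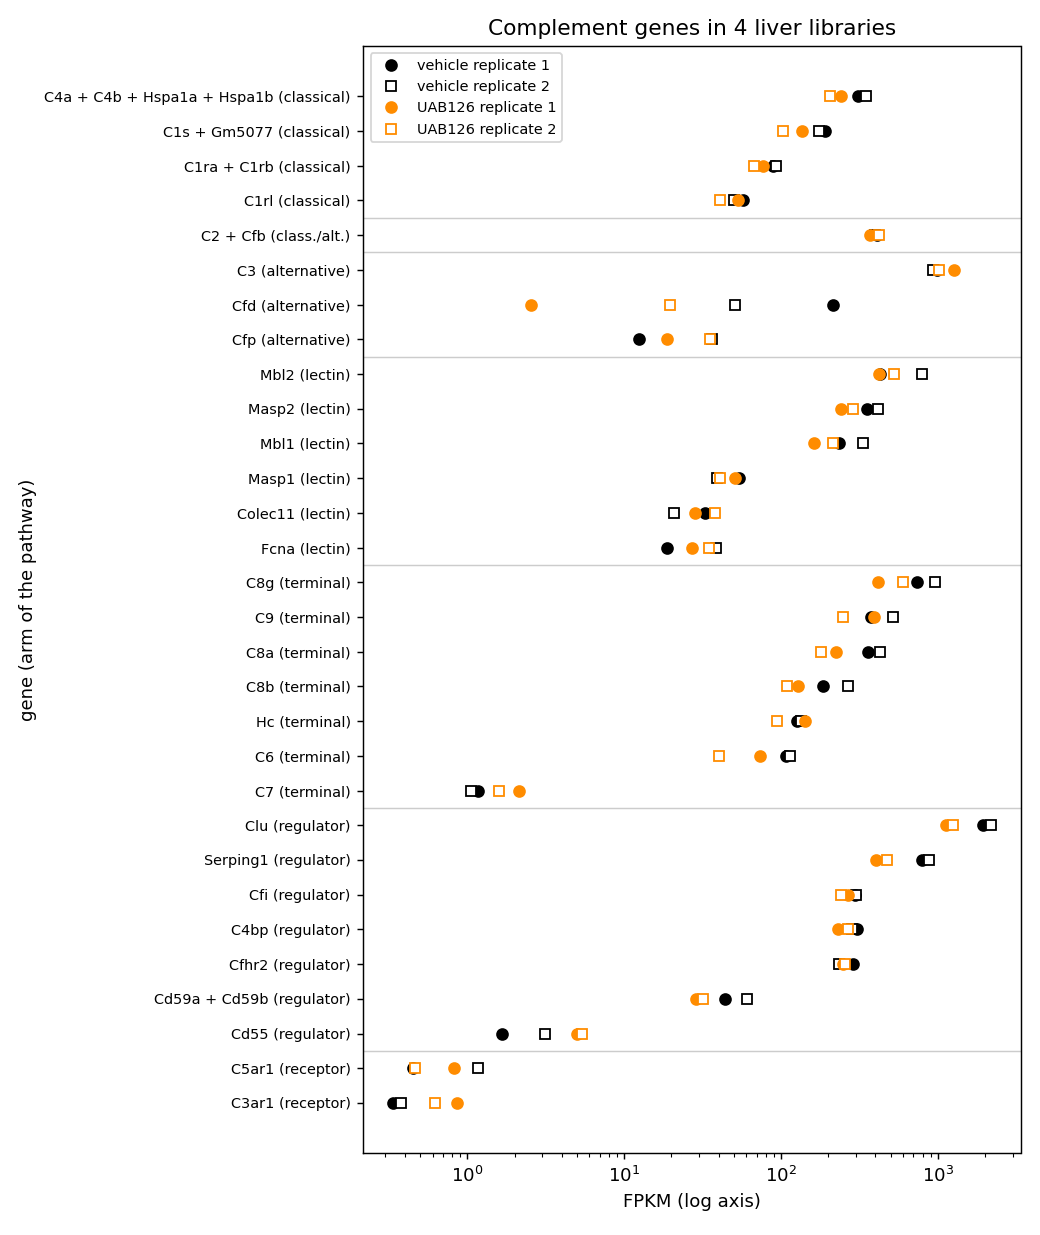
FPKM on a log axis of the 25 complement genes with a row of their own and of the 5 rows naming several genes, 1 point per library (circles, replicate 1; squares, replicate 2; black, vehicle; orange, UAB126). Levels run from under 1 FPKM for the receptor genes to 2173 FPKM for Clu, and the orange points of Clu, Serping1, C8a, C8b and C6 lie to the left of the black ones.

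Among all tested symbols the median log2 difference was lower the more abundant the genes were, with 0.07 at 1 to 3 FPKM, -0.16 at 30 to 100 FPKM, -0.45 at 300 to 1000 FPKM and -0.70 from 1000 FPKM. The members' medians were -0.20 at 30 to 100 FPKM (5 genes), -0.24 at 100 to 300 FPKM (7), -0.54 at 300 to 1000 FPKM (5) and -0.27 from 1000 FPKM (2, Clu and C3), and the trend in the members was not compared with that in other genes by a test. Among the 1036 symbols averaging 100 FPKM or more, 49.5% were lower and 8.49% higher in both UAB126 libraries, and the median was -0.39. Of the 14 members at that level, 9 were lower (64.3%) and 1 was higher in both UAB126 libraries, with a median of -0.51. At an unadjusted p under 0.05 there were 4 lower and 0 higher among these 14, against 17.6% and 2.7% of the abundant symbols, and 0 of them passed the adjusted threshold, against 0.193%, all lower. The FPKM of all tested symbols summed to 5618749 and 11335724 under vehicle and to 2297627 and 2770160 under UAB126, and the part of this in the trend with level was not tested. Set against the median of their own level class, 11 of the 23 members lay below it and 12 above it. Outside the middle quartiles of their class, 6 members lay below (Cfd, C6, C8a, C8b, C8g and Serping1) and 6 above (Colec11, C3, Cfp, C7, Cfhr2 and Cd55). By definition 1 in 4 symbols of each class lies below its middle quartiles and 1 in 4 above. The 6 of 23 members on either side are near that share, so these counts do not set the members apart. With quantile normalisation the median of the abundant symbols was -0.00 and that of the 14 members -0.11, with 5 of them still lower in both UAB126 libraries, against 25.1% of the abundant symbols.

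**Figure D2:**
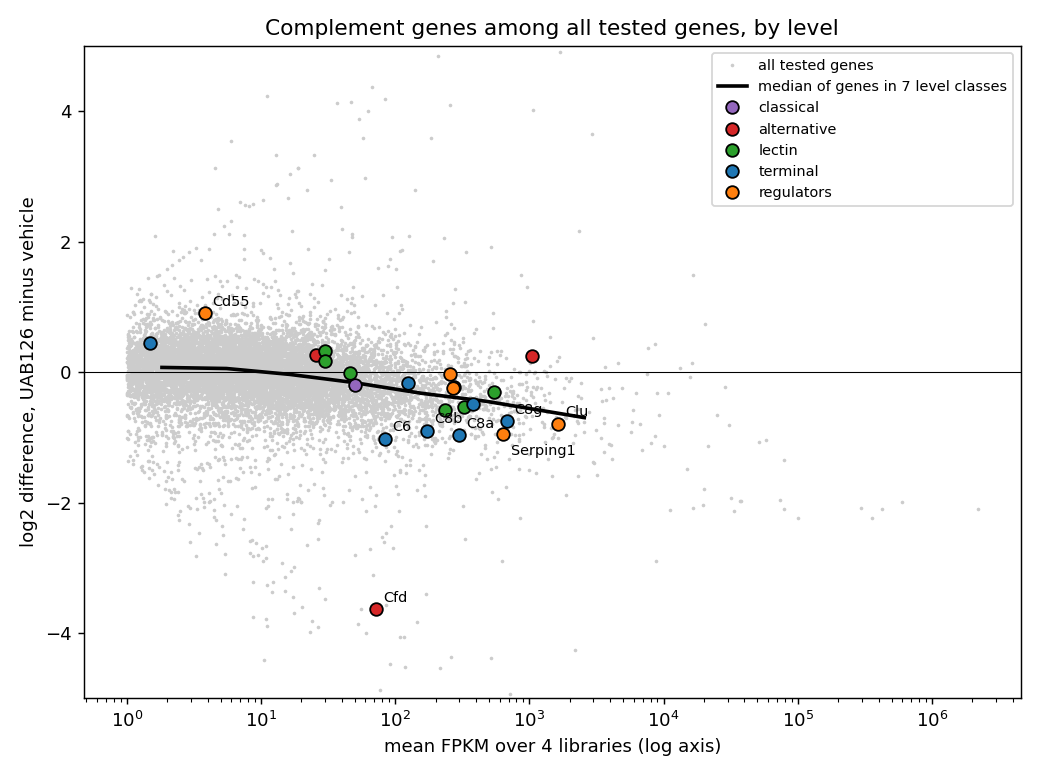
Log2 difference (UAB126 minus vehicle, log2(FPKM + 1) scale) against mean FPKM over the 4 libraries (log axis), for all tested symbols (grey) and the 23 tested members (coloured by arm of the pathway); the black line joins the medians of 7 level classes, and 17 symbols lie beyond the axis limits of -5 and 5. The line falls from 0.07 in the lowest class to -0.70 in the highest, with Cfd, C6, C8a and C8b under it and Cd55 and C3 (the red point near 1000 FPKM) over it.

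In the classical arm, the rows that hold the C1 proteases and C4 were lower with UAB126, while the row of C2 with factor B was level. The row naming C1s, the protease that cleaves C4 and C2, together with Gm5077 was at 192.3 and 175.3 FPKM under vehicle and at 135.8 and 102.5 FPKM under UAB126. Both UAB126 libraries were lower, a log2 difference of -0.63 ± 0.24 (limma's moderated SE, n = 2 per group). In the text ± after a log2 difference is always this SE. The row of C1ra, the partner protease, with its near-identical copy C1rb was at 88.8 and 92.7 FPKM under vehicle and at 76.7 and 67.2 FPKM under UAB126, again without overlap (-0.33 ± 0.20). C4b, the precursor of the C4 fragment that C2 joins, shared a row with its copy C4a and with the heat shock genes Hspa1a and Hspa1b. That row was at 309.4 and 349.9 FPKM against 242.7 and 205.1 FPKM (-0.56 ± 0.24), and how much of it came from C4b cannot be read from it. None of these rows passed (limma adjusted p from 0.368 to 0.487). Of all tested symbols, 47.4% at 100 to 300 FPKM and 34.9% at 30 to 100 FPKM were lower in both UAB126 libraries. The C1ra and C4b rows lay within the middle quartiles of their level class, the C1s row below them. With quantile normalisation the differences of the C1s, C1ra and C4b rows were -0.28, -0.07 and -0.20. The C2 and Cfb row, for the paired classical and alternative convertase proteases, was at 412.1 and 397.4 FPKM under vehicle and at 369.8 and 424.0 FPKM under UAB126. The groups overlapped there (-0.03 ± 0.24), and the sign turned with quantile normalisation (0.34) and without UAB126 replicate 1 (0.07). C1rl, a C1r-like protease gene on chromosome 6 (mm10, 124493113 to 124510643), was the only classical member with a row of its own. It was at 57.6 and 50.3 FPKM under vehicle and at 53.1 and 40.9 FPKM under UAB126, with overlapping groups (-0.20 ± 0.23, limma adjusted p = 0.685).

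In the lectin arm, the protease Masp2 and the lectin Mbl1 were lower in both UAB126 libraries, and the other 4 genes overlapped. The lower share was 33.3%, against 26.9% of all tested symbols, 47.4% at 100 to 300 FPKM and 48.2% at 300 to 1000 FPKM. Both Masp2 and Mbl1 lay within the middle quartiles of their level class. Masp2, which cleaves C4 and C2 (chromosome 4, 148602554 to 148615499), was at 355.9 and 413.5 FPKM under vehicle and at 242.0 and 288.2 FPKM under UAB126. Its vehicle mean was 1.45 times the UAB126 mean, and the log2 difference was -0.54 ± 0.25 (n = 2 per group, limma adjusted p = 0.408). Mbl1, a mannose-binding lectin (chromosome 14, 41151458 to 41159601), was at 234.5 and 331.5 FPKM against 162.0 and 213.2 FPKM. Vehicle replicate 1 and UAB126 replicate 2 were close there, and the difference of -0.58 ± 0.29 did not pass (limma adjusted p = 0.428). Without vehicle replicate 2 it was -0.33, and with quantile normalisation it was -0.23 for Mbl1 and -0.16 for Masp2.

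Mbl2, the second mouse mannose-binding lectin and the most abundant lectin pathway transcript (chromosome 19, 30232942 to 30239687), was at 425.2 and 794.5 FPKM under vehicle and at 421.1 and 525.6 FPKM under UAB126. Vehicle replicate 2 stood above the rest and the other 3 libraries lay together (-0.30 ± 0.38, limma adjusted p = 0.719). The sign of this difference turned without vehicle replicate 2 (0.15), with quantile normalisation (0.14) and with the trend of each library with transcript length removed (0.09). Mbl2 has a short transcript, of 1089 bases at its longest. The ratio of Mbl2 to Mbl1 was 1.81 and 2.40 in vehicle and 2.60 and 2.47 with UAB126. Both UAB126 values were higher, but vehicle replicate 2 was close to them, and other gene pairs were not compared. Masp1, the protease that activates Masp2, was at 54.3 and 39.1 FPKM under vehicle and at 50.9 and 41.0 FPKM under UAB126 (-0.01 ± 0.25). Colec11, a collectin that pairs with Masp proteases, was at 32.9 and 20.9 FPKM against 28.5 and 38.1 FPKM (0.32 ± 0.29). Neither separated the groups. The sign of Masp1 turned without vehicle replicate 1 (0.22), without UAB126 replicate 2 (0.14) and with quantile normalisation (0.17), and the log2 difference of Colec11 was 0.0034 without vehicle replicate 2 and 0.11 without UAB126 replicate 2.

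Fcna, which encodes ficolin A, a sugar-binding protein of macrophages, was at 18.9 and 38.5 FPKM under vehicle and at 27.1 and 34.5 FPKM under UAB126. The library that stood apart was vehicle replicate 1, and the groups overlapped (0.17 ± 0.37). Cfp, the gene of properdin, which stabilises the alternative convertase, showed the same order of libraries, with 12.4 and 36.6 FPKM under vehicle and 18.8 and 35.3 FPKM under UAB126 (0.26 ± 0.55). The C1q chain genes, also made by macrophages, were lowest in that library as well. C1qa was at 25.6 and 71.8 FPKM against 46.7 and 75.2 FPKM, C1qb at 28.0 and 93.8 against 48.4 and 70.1 FPKM, and C1qc at 21.8 and 65.4 against 44.0 and 60.3 FPKM. The Kupffer cell markers Clec4f (15.9 FPKM in vehicle replicate 1, 31.8 to 46.4 FPKM elsewhere) and Cd5l (16.5 FPKM, and 44.2 to 49.0 FPKM elsewhere) moved with them. Their part in the values of Cfp and Fcna was not tested. Without vehicle replicate 1 the log2 differences of Fcna and Cfp turned from above to below 0 (-0.32 and -0.49), and that of Cfp also did so without UAB126 replicate 2 (-0.18).

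**Figure D3:**
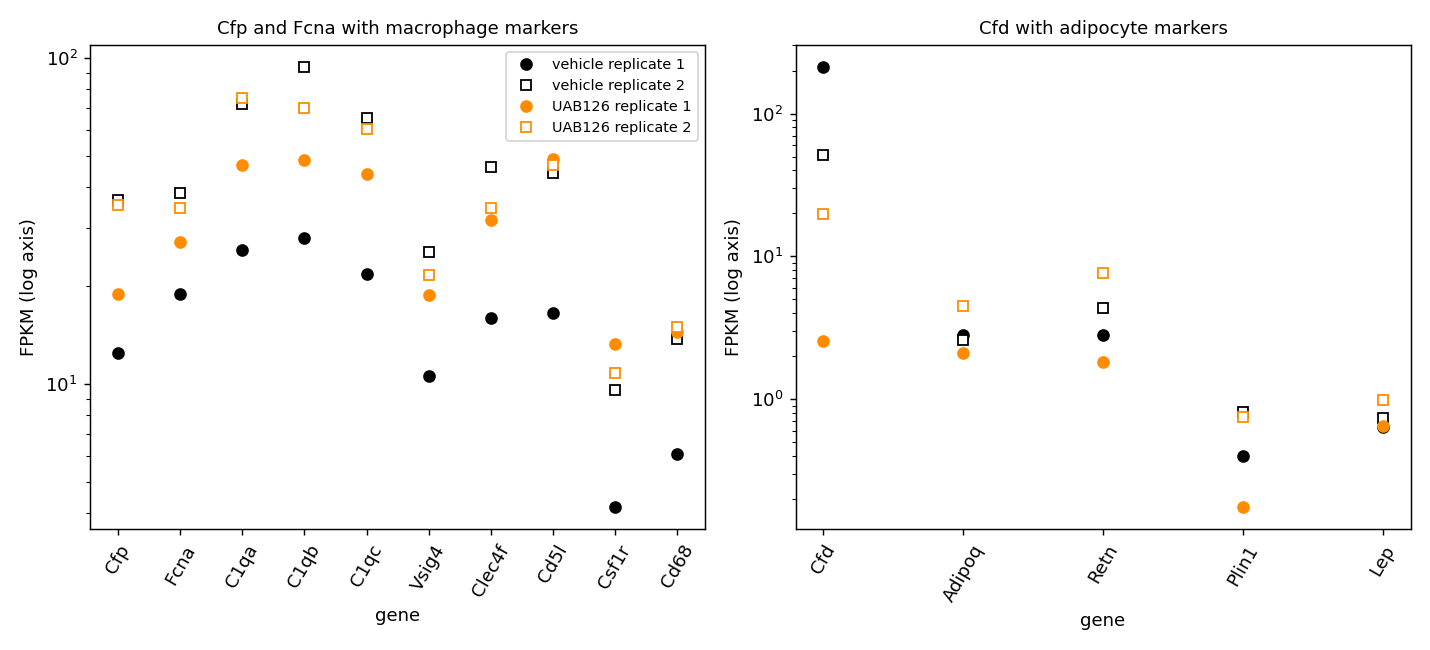
FPKM on a log axis in each of the 4 libraries (circles, replicate 1; squares, replicate 2; black, vehicle; orange, UAB126): left, Cfp and Fcna beside the C1q chains and macrophage markers; right, Cfd beside 4 adipocyte markers. On the left vehicle replicate 1 (filled black) is the lowest point of every gene, and on the right the adipocyte markers stay under 8 FPKM while Cfd runs from 2.54 to 213.2 FPKM.

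In the alternative arm, C3 was higher and factor D lower in both UAB126 libraries, and neither difference passed. C3, the central component on which all routes converge (chromosome 17, 57203970 to 57228136), was at 985.6 and 930.9 FPKM under vehicle and at 1278 and 1019 FPKM under UAB126. Both UAB126 libraries were higher, by 0.25 ± 0.28 on the log2 scale, less than its SE (limma adjusted p = 0.681), and by 0.09 without UAB126 replicate 1. Tested symbols from 1000 FPKM had a median of -0.70 and an upper quartile of -0.23, so that C3 lay above most genes of its level. As a share of the summed FPKM of the 25 members, C3 made up 12.5% and 10.3% in vehicle and 21.5% and 16.9% with UAB126. That sum was itself lower with UAB126, at 5947 and 6026 FPKM against 7912 and 9014 FPKM under vehicle. The rise in share is therefore larger than the rise in C3.

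Cfd, which encodes factor D (adipsin), the protease that cleaves factor B and a major product of fat cells, had the largest difference of the members (chromosome 10, 79890853 to 79892655). It was at 213.2 and 51.2 FPKM under vehicle and at 2.54 and 19.6 FPKM under UAB126. The groups did not overlap, but libraries of a group were far apart, by more than 4 times in vehicle and more than 7 times with UAB126. The ratio of vehicle to UAB126 means was 11.9, and the log2 difference was -3.63 ± 1.01 (n = 2 per group, limma adjusted p = 0.275). It ranged from -4.90 without UAB126 replicate 2 to -2.36 without UAB126 replicate 1. The adipocyte markers were low: Adipoq was at 2.80 and 2.59 FPKM under vehicle and at 2.09 and 4.47 FPKM under UAB126, and Plin1 was under 1 FPKM in every library. The 4 adipocyte markers with a row summed to 6.62 and 8.45 FPKM under vehicle and to 4.73 and 13.8 FPKM under UAB126. Within UAB126 the library with more Cfd had more of these markers, and within vehicle the library with more Cfd had fewer. Their part in the values of Cfd was not tested.

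In the terminal arm, the genes of C6 and of all 3 chains of C8 were lower in both UAB126 libraries, and those of C5 and C9 overlapped. C8 joins the growing attack complex as an alpha, a beta and a gamma chain. C8a, the alpha chain gene (chromosome 4, 104815679 to 104876398), was at 358.6 and 429.9 FPKM under vehicle and at 224.1 and 179.8 FPKM under UAB126. The vehicle mean was 1.95 times the UAB126 mean, a log2 difference of -0.96 ± 0.25 (n = 2 per group, limma adjusted p = 0.270). C8b, the beta chain gene beside it on chromosome 4 (104766317 to 104804548, on the opposite strand), was at 186.0 and 265.7 FPKM against 128.9 and 109.6 FPKM, with means 1.89 times apart (-0.90 ± 0.27, limma adjusted p = 0.301). The ratio of C8a to C8b was 1.93 and 1.62 in vehicle and 1.74 and 1.64 with UAB126, so the groups overlapped in it. C8g, the gamma chain gene (chromosome 2, 25498651 to 25501719), was the most abundant terminal gene, at 735.9 and 963.3 FPKM against 413.3 and 603.3 FPKM (-0.75 ± 0.32, limma adjusted p = 0.387). Its transcript is short, 1150 bases at its longest, and with the length trend removed the difference was -0.38. Since the groups did not overlap, leaving out a library or changing the pseudocount or filter could not turn the sign of the 3 chains. With quantile normalisation the differences of C8a, C8b and C8g were -0.57, -0.54 and -0.26. With the length trend removed those of C8a and C8b were -0.99 and -0.79. With centring on hepatocyte markers the 3 were -0.22, -0.16 and -0.01.

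The 250 bases upstream of the annotated start are shown for C8a and C8b, neighbours that were lower together, and for C3, which was not lower. They are from RefSeq (GRCm38.p6), 5′ to 3′ on the strand of the gene, with motif matches in capitals.
C8a, chr4:104876399-104876648, minus strand: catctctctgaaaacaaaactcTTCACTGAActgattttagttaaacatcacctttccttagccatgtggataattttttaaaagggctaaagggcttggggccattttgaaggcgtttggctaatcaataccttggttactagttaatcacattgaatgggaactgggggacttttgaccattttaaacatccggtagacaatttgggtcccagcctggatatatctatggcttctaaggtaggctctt
C8b, chr4:104766067-104766316, plus strand: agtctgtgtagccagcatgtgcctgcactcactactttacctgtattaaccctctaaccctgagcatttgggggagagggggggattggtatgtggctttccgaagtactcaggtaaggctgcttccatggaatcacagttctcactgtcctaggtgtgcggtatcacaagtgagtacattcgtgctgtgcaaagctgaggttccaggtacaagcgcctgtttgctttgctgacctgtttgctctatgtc
C3, chr17:57228137-57228386, minus strand: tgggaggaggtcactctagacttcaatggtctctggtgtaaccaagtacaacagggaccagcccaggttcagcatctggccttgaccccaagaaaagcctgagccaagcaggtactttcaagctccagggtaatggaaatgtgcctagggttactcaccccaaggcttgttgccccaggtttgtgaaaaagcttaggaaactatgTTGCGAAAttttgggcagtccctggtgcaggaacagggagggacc
The motifs searched on both strands were C/EBP (TTGCNNAA), STAT (TTCNNNGAA), HNF4 (CAAAGTCCA), TATAAA and the consensus sequences of HNF1 and NF-kB, in windows of 250 bases. A promoter was found for 24 of the 31 listed genes, and the first listed start of each was counted. C3 held 1 C/EBP match, starting 45 bases upstream, C8a 1 STAT match, 228 bases upstream, and C8b none. C/EBP matches stood in 4 of the 24 (C1rl, C1s, C9 and C3) against 9.55% of 27025 mouse promoters, and STAT matches in 4 (C8a, Masp2, Colec11 and C7) against 7.18%. The letters TATAAA stood in 3 against 13%, starting 239 bases upstream in Hc, 235 in C3ar1 and, on the other strand, 6 in C7. For Masp2, C7 and Mbl2 the bases after the listed start were not found in a GENCODE transcript of the gene. The matches of Masp2 and C7 therefore rest on less certain starts. The C/EBP match of C1s was upstream of its first listed start, and its second listed start had 0 matches. HNF1, HNF4 and NF-kB letters were in 0 of the 24, against 0.0074%, 0.381% and 0.337% of all promoters. A match is a stretch of letters and says nothing of binding.

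C6, which follows C5b in the complex (chromosome 15, 4727175 to 4814967), was at 107.7 and 113.9 FPKM under vehicle and at 73.1 and 40.1 FPKM under UAB126; the means were 1.96 times apart. The UAB126 libraries were lower but unlike each other (-1.02 ± 0.33), and the difference was -0.59 without UAB126 replicate 2. Hc, the mouse C5 gene (chromosome 2, 34983331 to 35061438), was at 126.4 and 135.0 FPKM under vehicle and at 142.8 and 94.1 FPKM under UAB126, 1 library on each side of the vehicle values (-0.17 ± 0.27), and the sign turned without UAB126 replicate 2 (0.13) and with quantile normalisation (0.18). C9, the subunit that polymerises into the pore (chromosome 15, 6445327 to 6498751), was at 373.7 and 518.0 FPKM against 392.2 and 250.3 FPKM, with overlap (-0.49 ± 0.33, and -0.17 without UAB126 replicate 2). C7, which anchors the complex to the membrane (chromosome 15, 4988762 to 5063740), was the one terminal gene near the filter, at 1.17 and 1.05 FPKM under vehicle and at 2.15 and 1.60 FPKM under UAB126. Both UAB126 libraries were higher (0.44 ± 0.23), and at a mean of at least 5 FPKM this gene was not tested. The 7 terminal genes had a median log2 difference of -0.75, which was -0.26 with quantile normalisation and -0.38 with the length trend removed. It was the lowest of the arms. The others were -0.24 in the 6 regulators, -0.20 in C1rl alone, -0.16 in the 6 lectin genes and 0.25 in the 3 alternative genes. The arms differ in size and abundance and were not compared by a test. Of the terminal genes 57.1% were lower in both UAB126 libraries and of the regulators 66.7%, against 26.9% of all tested symbols. The markers of hepatocytes had a median log2 difference of -0.77 over 10 tested genes, Alb among them, but were not uniform. In both UAB126 libraries 6 were lower (60%, against 49.5% of symbols from 100 FPKM) and Hnf4a was higher (0.46). The other markers overlapped, among them Apob (-0.005) and Cps1 (-0.17). Apoa1, Ttr and Fgb lay above 1000 FPKM, where the median of all tested symbols was -0.70. A link between these markers and the terminal genes was not tested.

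**Figure D4:**
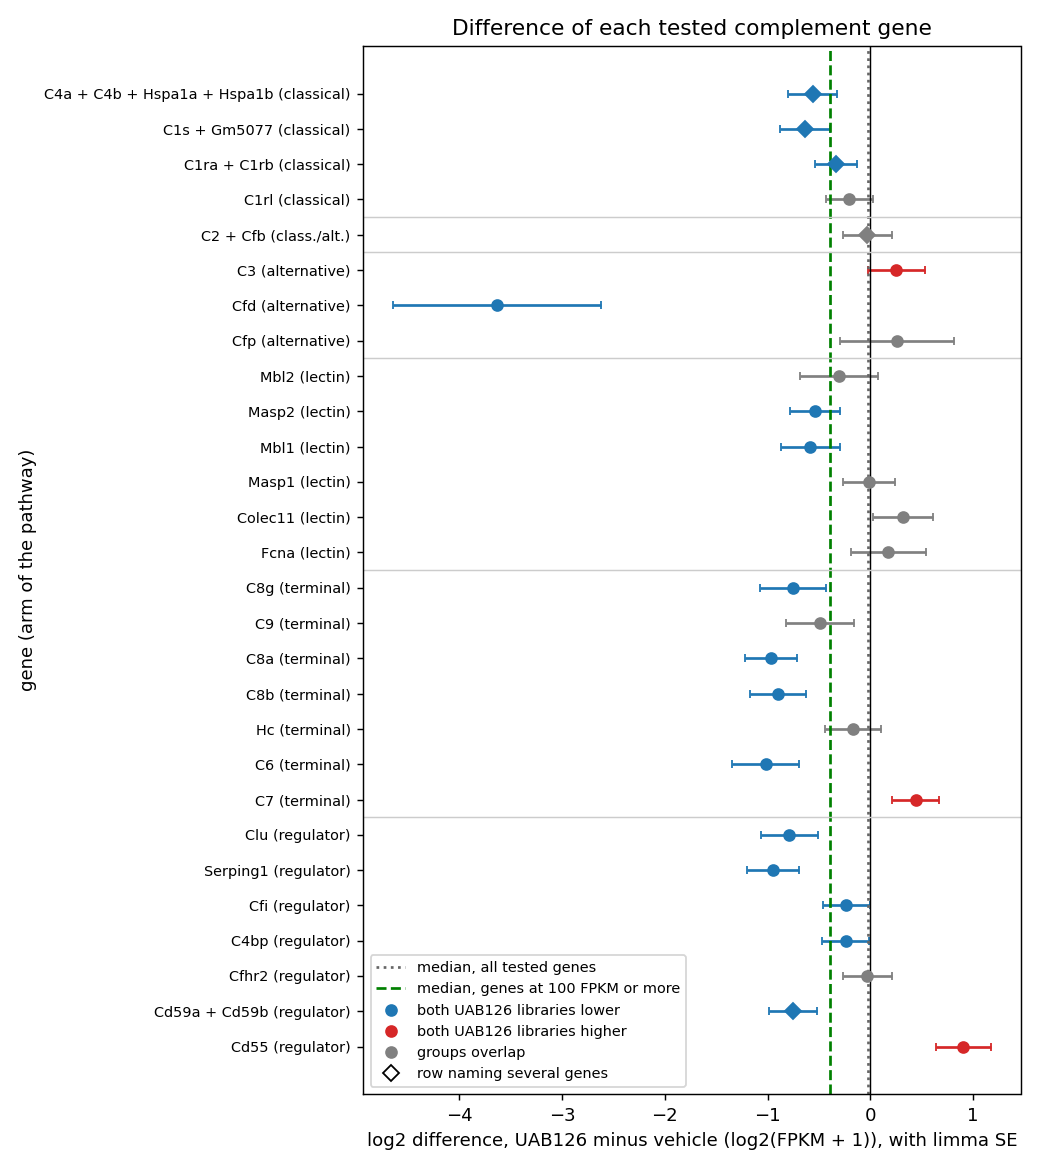
Log2 difference (UAB126 minus vehicle, log2(FPKM + 1) scale) with limma's SE for the 23 tested members (circles) and the 5 rows naming several genes (diamonds), ordered by arm; blue marks both UAB126 libraries lower, red both higher and grey overlap, and the dashed line is the median of tested symbols from 100 FPKM and the dotted line that of all tested symbols. Cfd lies at -3.63 with the widest bar, the C8 chains, C6 and Serping1 between -1.02 and -0.75, and Cd55 at 0.90.

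Among the regulators, the genes of C1 inhibitor and clusterin were lower with UAB126 and that of CD55 was higher. Serping1, which encodes C1 inhibitor, the serpin that blocks C1r, C1s and the Masp proteases (chromosome 2, 84765387 to 84775444), was at 798.8 and 884.9 FPKM under vehicle and at 402.0 and 472.5 FPKM under UAB126. The libraries of each group lay close together and the groups were well apart, with a vehicle mean 1.93 times the UAB126 mean. The log2 difference was -0.95 ± 0.25 (n = 2 per group, limma adjusted p = 0.270), and tested symbols at 300 to 1000 FPKM had a median of -0.45 and a lower quartile of -0.73. With quantile normalisation it was -0.51. The ratio of C3 to Serping1 within a library was 1.23 and 1.05 in vehicle and 3.18 and 2.16 with UAB126. It had to be higher in both UAB126 libraries, since C3 was higher and Serping1 lower in both, and it adds no support to either difference.

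Clu, the gene of clusterin, a secreted chaperone that also blocks the attack complex (chromosome 14, 65968483 to 65981547), was the most abundant member. It was at 1942 and 2173 FPKM under vehicle and at 1130 and 1248 FPKM under UAB126, without overlap, with means 1.73 times apart (-0.79 ± 0.28, limma adjusted p = 0.335). Tested symbols from 1000 FPKM had a median of -0.70, and with quantile normalisation the difference of Clu was -0.26. Cd55, which encodes a membrane protein that speeds the decay of the convertases (chromosome 1, 130439027 to 130462744), was at 1.65 and 3.14 FPKM under vehicle and at 5.001 and 5.41 FPKM under UAB126. Both UAB126 libraries were higher, a ratio of UAB126 to vehicle means of 2.17 (0.90 ± 0.27, limma adjusted p = 0.292). The difference ran from 0.58 to 1.65 in the alternative runs. Without overlap, leaving out a library or changing the pseudocount could not turn its sign. With quantile normalisation it was 0.88. At a mean of at least 5 FPKM this gene was not tested. The row of Cd59a, an inhibitor of C9 insertion, with its copy Cd59b went the other way, at 44.1 and 60.8 FPKM under vehicle and at 28.7 and 32.0 FPKM under UAB126 (-0.75 ± 0.23).

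The plasma regulators of C3b and C4b had small differences. Cfi, the protease factor I, was at 297.6 and 299.3 FPKM under vehicle and at 268.3 and 240.2 FPKM under UAB126 (-0.23 ± 0.23). C4bp, the C4-binding protein, was at 304.1 and 284.8 FPKM against 231.8 and 267.2 FPKM (-0.24 ± 0.23). Both were lower in both UAB126 libraries, by less than the median of tested symbols at 100 to 300 FPKM (-0.32), and both signs turned with quantile normalisation (0.15 and 0.11). Cfhr2, a further plasma regulator gene, was at 286.6 and 233.2 FPKM under vehicle and at 248.4 and 257.6 FPKM under UAB126, with overlap (-0.03 ± 0.24), and its sign turned without vehicle replicate 1 (0.12), with quantile normalisation (0.32) and with the length trend removed (0.19).

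The anaphylatoxin receptors, which sit mainly on myeloid cells, were near the lower end of the table. C3ar1, the C3a receptor, was at 0.337 and 0.376 FPKM under vehicle and at 0.861 and 0.620 FPKM under UAB126, higher in both UAB126 libraries. C5ar1, the C5a receptor, was at 0.448 and 1.17 FPKM under vehicle and at 0.820 and 0.466 FPKM under UAB126, with overlap. Neither reached a mean of 1 FPKM, and at these levels the shallowest library, vehicle replicate 2, is the least precise.

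Of 36 further complement genes that were listed, 26 had a row of their own and 17 were tested. None passed the threshold in either direction; at an unadjusted p under 0.05 there was 1, the beta 2 integrin Itgb2, as higher. Both UAB126 libraries were lower in 5 of the 17 (29.4%, against 26.9% of all tested symbols) and higher in 3 (17.6%, against 22.7%), and the median log2 difference was 0.14. Itgb2, a chain of complement receptor 3, was at 1.12 and 1.95 FPKM under vehicle and at 3.50 and 2.96 FPKM under UAB126, and a second row names it together with Pttg1ip. Colec10, the partner collectin of Colec11, was at 3.63 and 4.10 FPKM against 6.66 and 5.09 FPKM (0.49 ± 0.20). Susd4, a membrane inhibitor, was at 20.3 and 25.2 FPKM against 13.4 and 17.5 FPKM (-0.54 ± 0.22).

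Other plasma protein lists stand beside the shares of all tested symbols (26.9% lower and 22.7% higher in both UAB126 libraries, 0.139% past the threshold) and of those from 100 FPKM (49.5% and 8.49%). Of 30 tested coagulation genes, 18 were lower in both UAB126 libraries (60%), 1 was higher and 11 overlapped, with a median log2 difference of -0.40 and 0 past the threshold. Of 19 tested inducible acute phase genes, 14 were lower (73.7%), 1 was higher and 4 overlapped, with a median of -1.17 and 2 past the threshold as lower. Of the 23 complement genes 11 were lower and 3 higher, with a median of -0.24. Differences between these lists were not tested.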

How the data were processed

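RNA was measured in 4 liver libraries, 2 per group. Per the labels' protocols, total RNA was selected for polyadenylated RNA, primed at random and read in pairs. Cuffdiff, Cufflinks 2.2.1, STAR 2.5.1b and Trim Galore 0.4.1 are named per the submitters' processing notes, with build mm10; the sources used here give neither their settings nor the strand setting. The authors deposited FPKM values, so no count test was run, and genes that overlap on opposite strands cannot be told apart.

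Of 27216 rows, 3634 had no symbol and were left out; rows with the same symbol were summed. A pseudocount of 1 FPKM was added. Symbols averaging 1 FPKM or more entered lmFit and eBayes (trend on) of limma 3.58.1, run in R 4.3.3, with group as term; the script was first tested on simulated data. Other values used Python 3.11.15, pandas 2.3.3 and numpy 2.4.6. Positions and lengths are from GENCODE M21 (mm10).

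Members and lists were chosen with earlier results of these data known, so no list was tested as a set. Full statistics were given to members past the threshold, to the 2 members of each arm with the smallest unadjusted p and to the most abundant one, and from the further genes the 4 with the smallest p were chosen, of which 1 is not reported here. Alternatives were pseudocount, filter, quantile normalisation, length trend, prior spread, joint rows, libraries left out and a replicate block; centring on hepatocyte markers without Alb was added after seeing the data. With 2 libraries against 2, an exact permutation test cannot reach 0.05.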

Additional observations from a re-analysis of the deposited data

How the results depend on the processing

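In none of the alternatives fixed at the start did a complement gene pass; centring on hepatocyte markers, chosen after seeing the data, gave 3, with 1112 of all tested symbols, a member median of 0.50, 2 members lower in both UAB126 libraries and 12 higher. That centring adds the same amount to every difference, so signs that turn under it say nothing of the members. Among symbols from 100 FPKM, 8.88% were lower in both UAB126 libraries under it, with 1 of the 14 members at that level. The number of all tested symbols past the threshold was 15, and 27 with a pseudocount of 0.1 FPKM, 0 with no filter on low values, 24 with quantile normalisation and 0 to 442 without 1 library (442 leaving out vehicle replicate 1, 56 leaving out vehicle replicate 2, 14 and 0 leaving out UAB126 replicates 1 and 2). Quantile normalisation gave a member median of 0.11 and 7 members lower in both UAB126 libraries, against -0.24 and 11. The share lower among symbols from 100 FPKM also fell, from 49.5% to 25.1%. Without 1 library the median ran from -0.49 to -0.18, and 4 to 6 members were higher and 12 to 15 lower. With fewer libraries any gene separates more easily, and among symbols from 100 FPKM 51.5% to 76.9% were then lower. Shares over all tested symbols are not given for the alternatives, so these member counts do not show stability. Members higher in both UAB126 libraries numbered 5 with the length trend removed and 1 at a mean of at least 5 FPKM, where C7 and Cd55 were not tested. The replicate block gave 148 symbols and 0 complement genes past the threshold; the numbers 1 and 2 are shared only as labels, and deviations of libraries with the same number had a correlation of 0.178 across genes. Apart from that centring, 8 of the 23 members turned direction in at least 1 alternative. The causes of these moves were not tested. Depth most limits C7, Cd55, C3ar1 and C5ar1.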
